A study of Rattus norvegicus albus with 6 samples.

Results

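Primary rat hepatic stellate cells exposed to ICG-001 were compared with cells given its vehicle, gene by gene, on 2 of the series' 6 arrays. The difference was taken for every gene that the array annotation names by a single symbol, and 10025 of 14322 such genes were kept after the lowest 30% by mean level over the 6 arrays had been left out. At the edge of that filter, the levels of Jag2 and Pde1b (mean 6.39 each) were just inside, with differences of −0.55 and −0.03, and Foxh1 and Msi1 (6.38 and 6.39) were just outside, with −0.02 and 0.00. Levels are log2 values, so a difference of 1 stands for a 2-fold change, and "its vehicle" below is the control array of ICG-001.

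All 6 groups were stellate cells that had been activated by 7 days of growth on plastic in low glucose DMEM containing 10% FBS. The ICG-001 group received 10 µM of the compound for 24 h in serum-free medium, and its control received vehicle for the same 24 h. A separate pair received FJ9 at 200 µM or its own vehicle, also without serum and for 24 h. The last pair was infected at a multiplicity of 200 with an adenovirus carrying DKK-1 (Ad.DKK-1) or GFP (Ad.GFP) for 24 h in 5% FBS and then kept for 24 h without serum. The labels do not name the vehicle. Each array held RNA pooled from 3 to 4 rats and there was 1 array per group, so no comparison has a replicate check, no test was possible, and "higher" and "lower" describe these arrays alone.

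Stellate cells store vitamin A in the healthy liver and turn into contractile, collagen-secreting myofibroblast-like cells after injury or in culture on plastic. In the canonical Wnt pathway, β-catenin escapes a destruction complex, enters the nucleus and binds TCF/LEF factors, where it recruits the histone acetyltransferases CBP (Crebbp) or p300 (Ep300) to switch on target genes. ICG-001 is a small molecule that binds CBP and disturbs its partnership with β-catenin while leaving that of p300 largely untouched. FJ9 acts further upstream, where it blocks the contact between Frizzled receptors and Dishevelled, and DKK-1 is a secreted antagonist of the LRP5 and LRP6 co-receptors.

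The labelled cell type was checked against 25 stellate markers, of which 22 were measured and 20 passed the level filter. The mean level of the 22 measured ones was 10.60 with ICG-001, 11.08 on its vehicle and 10.95 on the vehicle of FJ9. Pdgfrb, a PDGF receptor of stellate cells, stood at 12.39, 12.46 and 12.42 on those arrays, and Reln, another stellate marker, at 12.23, 12.29 and 11.72. Of the 20 past the filter, 17 were lower than on its vehicle at any size, with a median of −0.27, or −0.43 against the vehicle of FJ9. The lowest differences were those of Pdgfra (−2.33), Lrat (−1.42), Lum (−1.32) and Colec11 (−1.20). The hepatocyte list passed the filter with 3 of 15 measured genes and the Kupffer cell list with 6 of 18, and the means over all measured members of these 2 lists lay between 6.01 and 6.79 on the same arrays. Past the filter were also 6 of 9 endothelial markers, 3 of 8 of cholangiocytes, 4 of 12 of lymphocytes and 7 of 11 of mesothelial cells and portal fibroblasts, with 2, 1, 2 and 3 of them lower by 1.5-fold and 0 higher. The counts were 2 lower for hepatocyte, 3 for Kupffer and 5 for stellate markers, with 0 higher. All these counts are against its vehicle, where 13.1% of all genes past the filter were lower. Among the 1003 lowest of those genes by level, 292 were lower and 74 higher. Against both vehicles, 0 hepatocyte, 0 cholangiocyte and 1 lymphocyte marker were lower, beside 2 endothelial, 2 mesothelial, 3 Kupffer and 4 stellate markers. The share of all genes past the filter that were lower against both was 7.37%. Hepatocyte and lymphocyte medians against the vehicle of FJ9 were −0.11 and −0.04. Levels of the Kupffer list ranged widely, from Clec4f at 5.64, 5.94 and 5.93 to the endotoxin co-receptor Cd14 at 10.01, 11.12 and 11.16 on the same arrays. In these bulk cultures, fewer cells of a type and less RNA per cell cannot be told apart.

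Across the 10025 genes, 1267 (12.6%) were higher by 1.5-fold or more with ICG-001 and 1314 (13.1%) lower, together 25.7%. Counts in the gene lists below are to be read beside these shares where no other is named. The shares against the vehicle of FJ9 were 12.5% higher and 12.2% lower, together 24.7%. At least 2-fold differences numbered 290 higher (2.89%) and 329 lower (3.28%), together 6.17%, and 4-fold ones 19 higher (0.19%) and 42 lower (0.419%). The vehicle array of FJ9 gives a second pool without either compound, also in serum-free medium. Between the vehicles, 7.64% of genes differed at least 1.5-fold, 2.44% higher and 5.2% lower on that of FJ9. Whether both vehicles were the same is not known, so a difference between pools and one between vehicles cannot be told apart. The SD over genes was 0.56 for ICG-001 minus its vehicle and 0.34 for the difference between the vehicles. Counted only where the ICG-001 array lay at least 1.5-fold beyond both vehicle arrays, 835 genes (8.33%) were higher and 739 (7.37%) lower, together 15.7%. Counts of list members past 1.5-fold against both vehicles are to be read beside 8.33% and 7.37%.

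The vehicle array of ICG-001 stood apart in its distribution, with a median of 7.28 over all probe sets against 7.01 to 7.15 on the other 5 arrays. Its lower quartile was 6.11, against 5.87 on the ICG-001 array. Differences leaned with level. With the kept genes sorted by level into 10 groups of 1002 or 1003, the median difference was −0.35 in group 1 (the lowest), 0.16 in group 6 and 0.00 in group 10. Against the vehicle of FJ9, group 1 had a median of −0.06. Centring each array on its median raised the median of all genes to 0.18 and turned the split to 2218 higher and 754 lower. For that reason the levels of the genes described below are mostly given on both vehicle arrays, and many list medians also against the vehicle of FJ9.

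**Figure D1:**
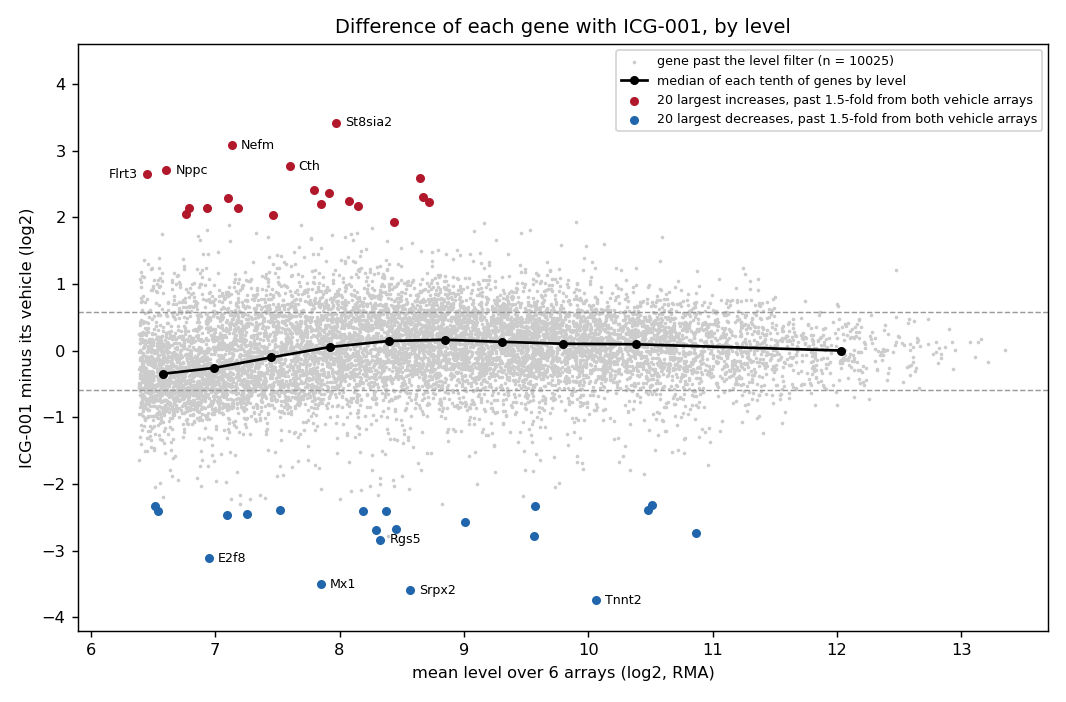
Each grey point is 1 of the 10025 genes, with its mean level over 6 arrays (log2) on the horizontal axis and ICG-001 minus its vehicle (log2) on the vertical axis; dashed lines mark 1.5-fold, and red and blue points are the 20 largest increases and decreases that also lay 1.5-fold beyond the vehicle of FJ9. The black line joins the medians of the 10 level groups and runs from −0.35 in group 1 to 0.16 in group 6 and 0.00 in group 10.

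The central genes of the CBP and β-catenin machinery, Ctnnb1, Crebbp and Ep300, differed by less than 1.5-fold. Ctnnb1, which encodes β-catenin, stood at 11.11 with ICG-001, 10.92 on its vehicle and 10.91 on the vehicle of FJ9. Crebbp, which encodes CBP, stood at 10.57, 10.26 and 10.23 on the same arrays, and Ep300, which encodes p300, at 9.80, 9.40 and 9.23. Of these 3 arrays, ICG-001 held the highest level for each gene, by 0.19, 0.31 and 0.40 over its vehicle, and none reached 1.5-fold. Of 33 coactivators, corepressors and nuclear partners of β-catenin past the filter, 5 were higher by 1.5-fold or more and 2 lower. The shares over all genes were 12.6% and 13.1%. The list's median was 0.22, against 0.01 for all genes and 0.00 for the list between the vehicles. A median of 0.10 resulted when each member was given the median of all genes in its level group. After centring, the list's median was 0.40 and that of all genes 0.18.

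Cited2, a transcriptional regulator that binds the CH1 domain of CBP and p300, differed most in that list, at 12.06 against 11.01 and 11.13. Its gain of 1.05 stood beside 0.92 with FJ9 and 1.14 with Ad.DKK-1, each against its own control. Nuclear receptor coactivators lay above both vehicle arrays: Ncoa1 by 0.65, Ncoa2 by 0.56 and Ncoa3 by 0.46 over the vehicle of ICG-001. Creb1, the factor for which CBP is named, was 0.62 higher, and Chd8, a chromatin remodeller that binds β-catenin, 0.65 higher. The acetyltransferase Kat2a was also 0.62 above its vehicle but level with the vehicle of FJ9 (8.23, 7.61 and 8.28). On the lower side were the deacetylase Hdac1 (10.15, 10.86 and 11.19) and the Groucho-type corepressor Tle2 (6.81, 7.53 and 7.03). A second Hdac1 probe set differed by −0.43, and with all probe sets of a gene averaged, 1 gene of the list was lower. Lef1, a TCF/LEF factor, was under the level filter at 4.73, 5.75 and 5.41. Tcf7 and Tcf7l1, also of the TCF/LEF family, lay within 1.5-fold, at −0.25 and −0.15. A second Tcf7l1 probe set, with a lower mean level of 7.01, differed by −0.68.

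Genes of the cytoplasmic side of the pathway lay on both sides of zero. Of 22 destruction complex and Dishevelled genes, 3 were higher and 2 lower, where 12.6% and 13.1% of all genes were. Their median was 0.13, beside 0.10 when each member was given the median of all genes in its level group. Axin1, the scaffold of the complex, stood at 8.81 against 8.21 and 8.33, and the kinase Gsk3a at 10.22 against 9.62 and 9.60. Rnf146, a ubiquitin ligase that acts on axin, was 0.63 higher. Apc2, a relative of the tumour suppressor Apc, was 0.94 lower and Apc itself 0.43 higher. Amer1, a membrane adaptor of APC, stood at 9.62 against 10.40 on its vehicle and 9.82 on the vehicle of FJ9, so its difference of −0.78 came with a gap of similar size between the vehicles.

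The feedback genes that Wnt signalling induces in many tissues showed no common direction. Axin2, the most widely used of these readouts, was 8.82 with ICG-001, 8.94 on its vehicle and 8.77 on the vehicle of FJ9, a difference of −0.13. The same gene differed by −2.54 with FJ9 and by −1.96 with Ad.DKK-1. Of 12 feedback genes past the filter, 2 were higher and 2 lower, where 12.6% and 13.1% of all genes were. The median was −0.07, which became 0.11 after centring. Bmp4, a BMP ligand, was the highest at 10.23 against 9.13 and 9.36, and Nkd2, an inhibitor of Dishevelled, was 0.59 higher. Nkd1, a related Dishevelled inhibitor, was 8.41 against 9.41 and 9.09. The receptor Tnfrsf19 was 0.87 lower. Rnf43, a ubiquitin ligase for Frizzled receptors, was under the filter, and its difference of −0.81 was 0.01 against the vehicle of FJ9. Birc5, another gene often read after ICG-001, was not analysed here, because no probe set carries its symbol alone.

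Other reported β-catenin/TCF targets were more often higher than lower. Of 29 past the filter, 11 passed 1.5-fold on the higher side and 3 on the lower. The median was 0.41, 0.33 against the vehicle of FJ9 and 0.05 between the vehicles. With FJ9 the list's median was −0.27, with 5 higher and 12 lower. With Ad.DKK-1 it was 0.13, with 7 higher and 9 lower. Met, the receptor for hepatocyte growth factor, stood at 9.75 against 7.57 and 7.89, 4.51-fold above its vehicle. The drug efflux pump gene Abcb1a was 8.17 against 6.03 and 5.95, and Cd44, the hyaluronan receptor, 11.18 against 9.60 and 9.74. With FJ9 and Ad.DKK-1, Abcb1a was higher by 3.42 and 4.10, and Cd44 by 0.25 and 0.35. Edn1, which encodes endothelin, a constrictor of stellate cells, was 11.61 against 10.22 and 10.32. Each of these 4 levels on the ICG-001 array was above both vehicle arrays by more than the gap between them.

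Transcription factors of the list lay on both sides. Id2 was 1.23 above its vehicle, Fosl1 1.02 (0.55 above the vehicle of FJ9) and Jun 0.99. Myc was 0.75 higher, at 10.75 against 9.99 and 9.97, and Tcf4 differed by −0.48. With FJ9 and Ad.DKK-1, Myc was also higher (0.81 and 1.03), as was Fosl1 (1.01 and 2.03). Jun differed by −0.27 and 0.33 there, Id2 by −0.06 and 0.46 and Tcf4 by −0.66 and −0.63. Ccnd1, which encodes cyclin D1 and is among the best known β-catenin targets, was 11.94 against 12.12 and 12.13, a difference of −0.18. It differed by −2.94 with FJ9 and −0.98 with Ad.DKK-1. The 3 lower targets were S100a4, a calcium-binding protein of motile cells, at 7.15 against 8.37 and 8.15, the repressor Snai1 at −0.70 and the nuclear receptor Ppard at −0.59. S100a4 was also lower with FJ9 (−2.02) and with Ad.DKK-1 (−1.12). Twist1 was 0.71 above its vehicle, though the vehicle of FJ9 lay 0.10 above the ICG-001 array.

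**Figure D2:**
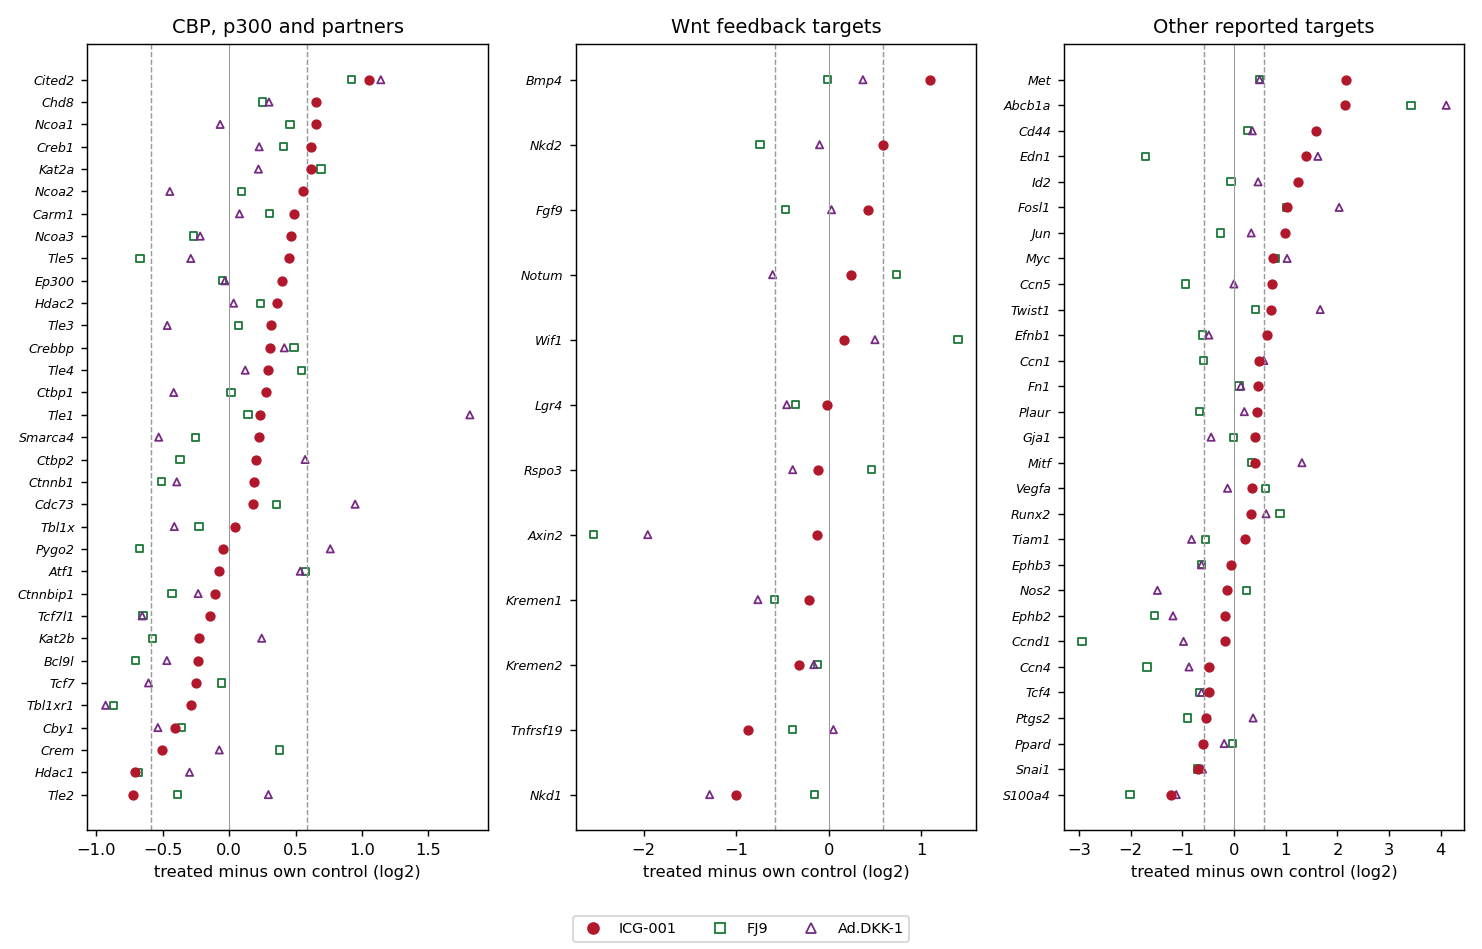
Each row is 1 gene past the level filter, and the horizontal axis gives the treated array minus its own control (log2) for ICG-001 (filled circles), FJ9 (squares) and Ad.DKK-1 (triangles); dashed lines mark 1.5-fold. With ICG-001, Axin2 (−0.13) and Ccnd1 (−0.18) lie near 0 while their FJ9 and Ad.DKK-1 points lie far to the left, and Met (2.17) and Cd44 (1.58) lie to the right.

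Wnt ligands, receptors and secreted antagonists leaned lower. Of 36 past the filter, 1 was higher and 10 lower, with a median of −0.32, but the median between the vehicles was −0.17 and that against the vehicle of FJ9 was −0.10. Sfrp1, a secreted Frizzled-like antagonist, was the lowest at 7.63 against 10.03 and 9.84, 5.27-fold below its vehicle, and it also differed by −3.32 with FJ9 and −1.81 with Ad.DKK-1. Frzb, a related antagonist, stood at 6.32 against 7.51 and 8.72. The receptor Fzd1 was 9.73 against 10.74 and 10.77, and the co-receptor Lrp5 9.59 against 10.42 and 10.09. The single gene past 1.5-fold on the higher side was Wnt5a, a mainly non-canonical ligand, at 10.72 against 9.52 and 9.73. Wnt5a was lower with FJ9 (−1.05) and with Ad.DKK-1 (−0.92).

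Among all genes, the largest increase was that of St8sia2, a polysialyltransferase that modifies NCAM. It stood at 10.40 with ICG-001, 6.98 on its vehicle and 7.29 on the vehicle of FJ9, a 10.7-fold difference from its vehicle. Nefm, a neurofilament subunit, was 8.68 against 5.60 and 6.36. The natriuretic peptide gene Nppc was 7.81 against 5.10 and 5.89, and Flrt3, an adhesion and guidance protein, 8.32 against 5.67 and 6.24. Flrt3 passed the level filter, at a mean of 6.45, only through the ICG-001 array, as its other levels ran from 5.67 to 6.24. Nppc, at a mean of 6.61, was also high with Ad.DKK-1 (8.51), and its remaining levels ran from 5.10 to 6.52. Efnb2, a transmembrane ligand of Eph receptors, was 9.55 against 7.19 and 7.59. Hopx, a homeodomain-only protein, and Klf5, a zinc finger factor, were 2.58 and 1.93 higher.

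Also among the 20 largest increases, Pappa, a protease that cleaves IGF-binding proteins, was 9.27 against 6.86 and 6.77. Timp3, a matrix-bound metalloprotease inhibitor, was 10.68 against 8.46 and 9.28, and Adamtsl5, an ADAMTS-like matrix protein, 9.90 against 7.66 and 7.71. Cd55, which shields cells from complement, was 2.20 higher. Transporters among the 20 were Slc7a8 and Slc7a3, which carry amino acids, Slc35f2 and Slc47a2. Below the level filter, Efemp1, an elastic fibre-associated protein, reached 8.70 against 5.71 and 5.44, and the BMP antagonist Nog 7.99 against 5.63 and 5.41. The filter left both out because their levels were low on the other arrays.

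The largest decrease was that of Tnnt2, a troponin T gene, at 7.60 against 11.34 and 11.63, 13.4-fold below its vehicle. Srpx2, a secreted sushi-repeat protein, was 6.03 against 9.63 and 10.39, and the interferon-induced GTPase Mx1 5.16 against 8.66 and 9.76. E2f8, a cell cycle repressor of the E2F family, was 4.99 against 8.10 and 7.77. Rgs5 and Rgs4, which shorten G protein signals and mark pericytes, were 6.13 against 8.96 and 9.17, and 9.17 against 11.91 and 12.10. Pdgfra was 7.88 against 10.21 and 10.23, Eln, which encodes elastin, 8.86 against 11.24 and 10.75, and Mgp, a calcification inhibitor, 9.01 against 11.32 and 11.68. The bile acid receptor Gpbar1 and the growth factor receptor Fgfr4 were 2.40 and 2.33 lower. For all 40 of these genes the ICG-001 array lay at least 1.5-fold beyond both vehicle arrays, which the choice of genes required.

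**Figure D3:**
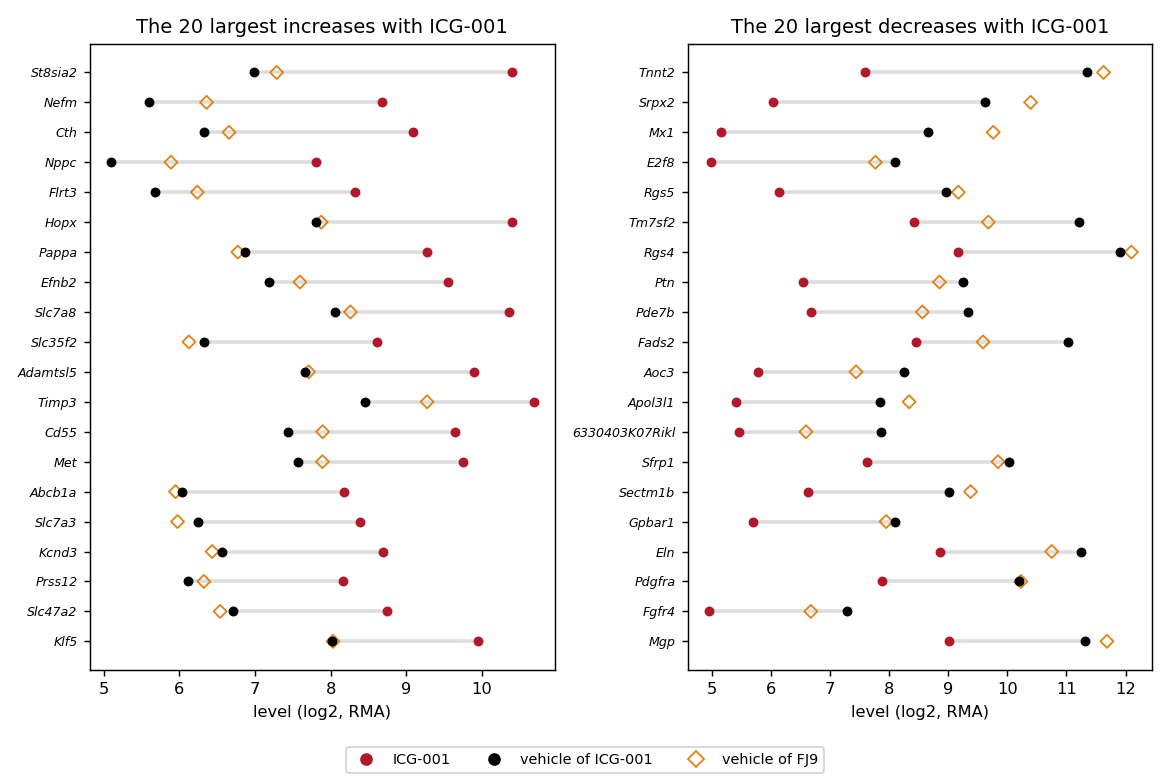
Levels (log2) of the 20 largest increases and 20 largest decreases on the ICG-001 array (red), its vehicle (black) and the vehicle of FJ9 (orange diamonds). The vehicles lie close together next to the distance to ICG-001 for genes such as Klf5 and Pdgfra, and further apart for Tm7sf2 (11.21 and 9.68) and Fads2 (11.02 and 9.59).

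Sterol synthesis was the list with the lowest median. Of 10 enzymes that turn squalene into cholesterol, 9 were at least 1.5-fold lower and 0 higher, with a median of −1.32. Against both vehicles, 6 were lower by that amount, where 7.37% of all genes were. Tm7sf2, a sterol reductase, stood at 8.43 against 11.21 and 9.68. Lss, which closes the sterol rings, stood at 9.36 against 11.13 and 10.47, and Sqle, which oxidises squalene, at 10.38 against 11.57 and 11.03. On all 10 genes the ICG-001 array was the lowest of these 3 arrays, compared with 39.1% of all genes. The vehicles themselves differed by a median of −0.60 over these genes, with the vehicle of ICG-001 the higher. Against the vehicle of FJ9 the list's median was −0.68. The list's medians were −1.90 with FJ9 and −1.08 with Ad.DKK-1, each against its own control.

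The mevalonate steps before squalene followed. All 6 measured genes of the 10 listed were below both vehicles, compared with 39.1% of all genes. Against its own vehicle, 4 of them were lower by at least 1.5-fold, and the median was −1.09. Mvd was 7.12 against 9.23 and 8.40, and the isomerase gene Idi1 10.01 against 11.87 and 11.57. Here too the vehicles differed, by a median of −0.46. Among 22 genes of sterol sensing, uptake and export the split was 4 higher and 6 lower. Stard4, a sterol carrier, was 6.40 against 8.62 and 8.07, and Srebf2, the master regulator of sterol synthesis, 9.97 against 10.76 and 10.50. Mylip, the ubiquitin ligase that degrades the LDL receptor, was 7.41 against 8.94 and 9.14. Genes on the higher side were Abca1, the cholesterol exporter, at 8.73 against 6.99 and 7.10, Vldlr at 1.07 and the lysosomal cholesterol transporter Npc1 at 0.80.

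Fatty acid synthesis showed the same lean but rested more on the choice of vehicle. Of 22 genes, 2 were higher and 11 lower with a median of −0.68, which was −0.23 against the vehicle of FJ9 and −0.43 between the vehicles. Fads2, a desaturase, was 8.46 against 11.02 and 9.59, and the elongase Elovl6 7.35 against 9.44 and 8.69. The stearoyl-CoA desaturase gene Scd was 8.31 against 11.09 on its vehicle but 8.26 on the vehicle of FJ9. Fads1 was 9.34 against 10.92 and 8.61, so its direction turned with the vehicle. Scd and its paralogue Scd2 are close in sequence, and probes may share signal between them. Scd2 was 11.20 against 12.57 and 11.71.

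Genes of the integrated stress response, in which ATF4 raises amino acid supply when translation initiation is curbed, were higher as a group. Of 22 regulators and targets, 11 were higher by 1.5-fold or more and 0 lower, with medians of 0.54 against its vehicle and 0.55 against the vehicle of FJ9. Ppp1r15a, the phosphatase subunit that ends the response, was 11.35 against 9.65 and 9.69. Trib3, an ATF4-induced pseudokinase, was 10.03 against 8.37 and 7.76, and Ddit3, which encodes CHOP, 9.61 against 8.43 and 8.81. Stc2, a secreted glycoprotein, was 9.74 against 8.25 and 8.28. The medians of this list were 0.64 with FJ9 and 0.99 with Ad.DKK-1.

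Amino acid synthesis and import shared that direction. Among 21 genes of serine, one-carbon, asparagine and cysteine synthesis, 9 were higher and 1 lower, with a median of 0.52. Cth, which makes cysteine from cystathionine, was 9.10 against 6.33 and 6.66. Psat1 and Phgdh of the serine pathway were 1.47 and 0.92 higher, and the mitochondrial folate enzyme Mthfd1l 1.45 higher. The exception was Cbs, the step before Cth, at 5.88 against 7.52 and 7.10. Of 19 amino acid transporters, 9 were higher and 1 lower, with a median of 0.54. Slc7a8 was 10.36 against 8.06 and 8.26, Slc1a5, a glutamine carrier, 10.88 against 9.31 and 9.08, and the shared heavy chain Slc3a2 13.10 against 11.89 and 11.74. The taurine transporter Slc6a6 was the lower one, at 9.22 against 10.89 and 11.00. Of 19 cytosolic aminoacyl-tRNA synthetases, which charge tRNAs, 9 were higher and 0 lower with a median of 0.58, led by Mars1 at 11.32 against 10.47 and 10.47.

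**Figure D4:**
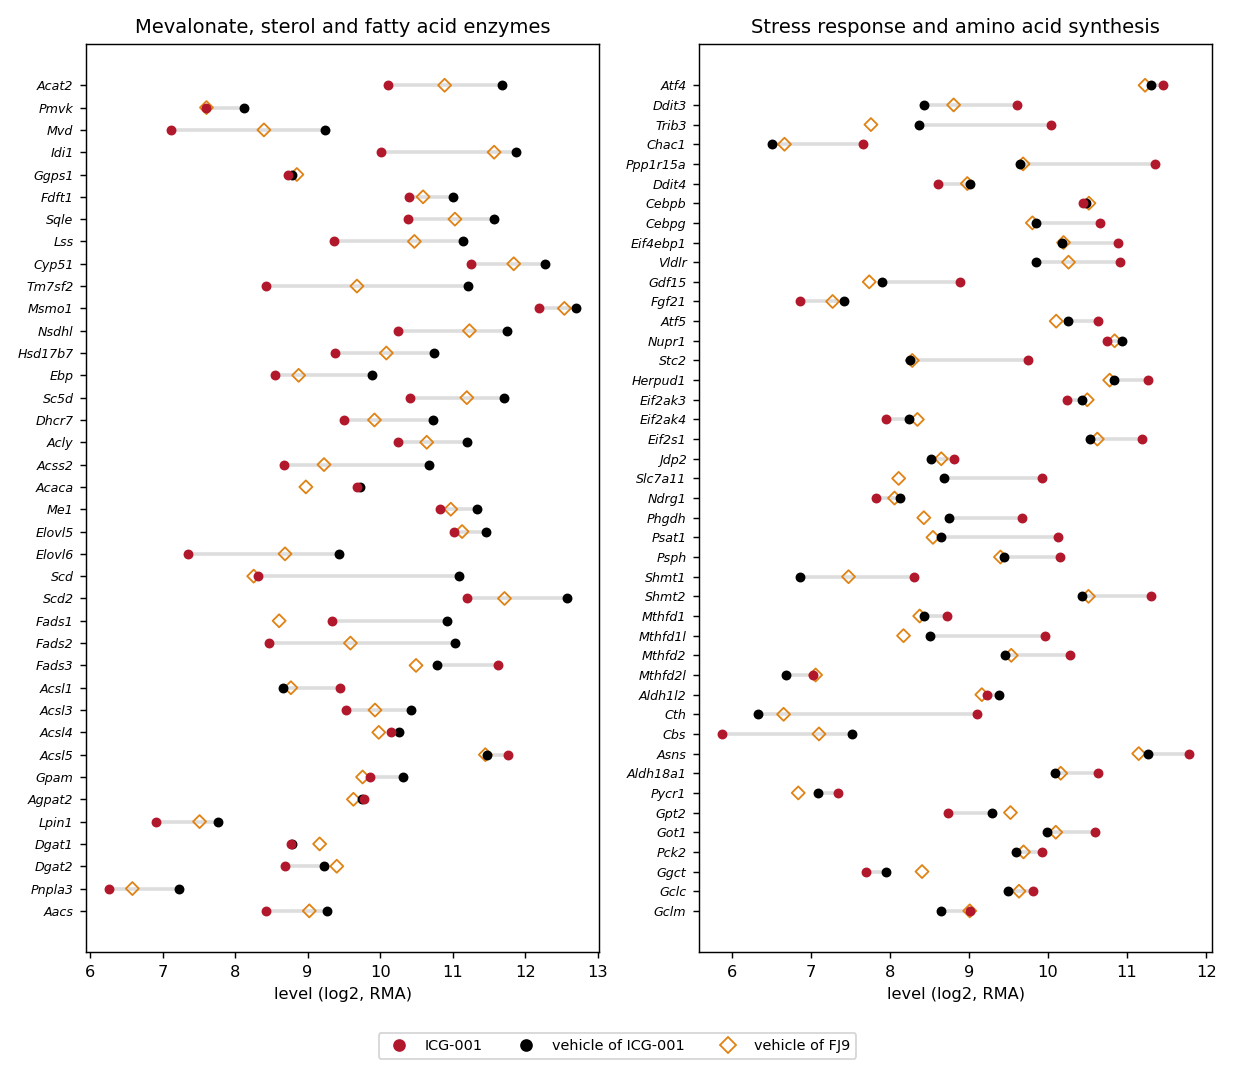
Levels (log2) on the ICG-001 array (red), its vehicle (black) and the vehicle of FJ9 (orange diamonds) for enzymes of mevalonate, sterol and fatty acid synthesis (left) and genes of the stress response and amino acid synthesis (right). The vehicle of FJ9 lies between the other arrays for most sterol enzymes, as with Lss at 10.47 between 9.36 and 11.13, while for most of the higher stress genes, such as Ppp1r15a, the vehicles lie close together.

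Ribosome production showed the largest share of higher genes in any list. Of 39 ribosome biogenesis genes, 23 passed 1.5-fold on the higher side and 0 on the lower, and 36 lay above both vehicles at any size, compared with 41.8% of all genes. The median was 0.61, or 0.39 against the vehicle of FJ9, and 15 genes were 1.5-fold higher against both, where 8.33% of all genes were. Rrp9, a subunit of the U3 snoRNP, was 9.72 against 8.41 and 8.59, and Polr1b, the second subunit of RNA polymerase I, 8.86 against 7.61 and 7.80. Fbl, the methyltransferase fibrillarin, was 10.54 against 9.65 and 9.73. The list's medians were 0.68 with FJ9 and 0.75 with Ad.DKK-1. Ribosomal proteins themselves differed little, with 1 higher and 2 lower of 62 and a median of −0.02, which turned to 0.15 after centring. Of 30 proteasome subunits 2 were higher and 0 lower, with a median of −0.04, or −0.24 against the vehicle of FJ9 and 0.13 after centring.

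Chaperones of the endoplasmic reticulum were not higher with the stress genes. Of 25 folding and degradation genes, 1 was higher and 3 lower, with a median of −0.22, or −0.34 against the vehicle of FJ9. The list's median was −0.31 with FJ9 and 0.95 with Ad.DKK-1. Pdia4, a disulphide isomerase, was 10.61 against 11.70 and 11.59, and Calr, a lectin chaperone, 11.20 against 12.01 and 12.04. The higher gene was Atf6, a stress sensor of that compartment, at 11.82 against 10.67 and 10.80.

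Immediate early genes, which answer growth factor and stress signals within minutes, were higher in part. Of 31 AP-1, early growth response and CREB-type genes, 14 were higher and 4 lower, with a median of 0.52 and 0.45 against the vehicle of FJ9. Atf3 was 10.25 against 8.46 and 8.47, and Klf4 10.87 against 9.54 and 9.22. Negative regulators of MAP kinases were among them: Dusp1 at 10.63 against 9.12 and 8.83, Dusp4 at 1.21, Spry2 at 1.05 and Spry1 at 1.04. Egr3 was the lowest at 6.66 against 7.79 and 7.55. With FJ9 the median of the list was −0.06, and with Ad.DKK-1 it was 0.24.

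Of 25 p53 targets, 7 were higher and 0 lower with a median of 0.39, or 0.26 against the vehicle of FJ9. Against both vehicles, 4 of these targets were 1.5-fold higher, where 8.33% of all genes were. Aen, a nuclease, was 10.33 against 9.14 and 9.49. Mdm2, which restrains p53, was 0.60 above its vehicle and 0.26 above the vehicle of FJ9. Among 17 CCN family and other YAP targets, 4 were higher and 2 lower with a median of 0.33, against −0.48 with FJ9 and −0.17 with Ad.DKK-1. Ankrd1 was 11.96 against 10.99 and 11.51, and Tgfb2 12.16 against 11.22 and 11.37. Nt5e, an ectonucleotidase, was the lowest at 9.94 against 11.64 and 11.77. TGF-β and BMP ligands, receptors and regulators split 5 higher and 2 lower of 33, where 12.6% and 13.1% of all genes were. Their median was 0.13, beside 0.10 when each member was given the median of all genes in its level group. Bmp2 was 8.01 against 6.61 and 7.18, Inhba, which forms activin, 9.92 against 8.64 and 9.04, and the signal transducer Smad3 9.26 against 8.36 and 8.69.

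Antiviral genes induced by interferon were lower. Of 38, 15 were at least 1.5-fold lower and 1 higher, with a median of −0.41. Below both vehicles at any size lay 32, compared with 39.1% of all genes. The vehicle of FJ9 was higher than that of ICG-001 by a median of 0.50, so against the vehicle of FJ9 the median was −1.03. Cmpk2 was 5.55 against 7.72 and 8.41, Ifit3, which binds viral RNA, 5.98 against 7.85 and 8.59, and Oas1a, which senses double-stranded RNA, 6.33 against 7.67 and 8.29. The list's medians were −1.49 with FJ9 and −1.41 with Ad.DKK-1. Mx1 has a close paralogue, Mx2, so its probes may read both.

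Chemokine, adhesion and NF-κB genes split 4 higher and 7 lower of 24, with a median of −0.18 and of −0.72 against the vehicle of FJ9. Vcam1, an adhesion receptor for leukocytes, was 6.83 against 8.90 and 9.56, and the alarmin Il33 7.58 against 9.58 and 9.74. The chemokine genes Cxcl12 (10.47, 11.63 and 11.88), Cxcl16 and Cxcl10 were also lower, while Rela, an NF-κB subunit, was 10.75 against 9.81 and 10.09. Complement and acute-phase genes were lower in 6 of 14 and higher in 1, with a median of −0.47. C7, a component of the lytic complex, was 6.19 against 8.36 and 7.92. The Kupffer cell markers were lower beside these lists: 3 of 6 past the filter were lower, with a median of −0.62, and the mean of all 18 was 6.06 against 6.66 and 6.79. Csf1r, which defines macrophages, was 5.74 against 6.90 and 7.33. Their part in the lower interferon, chemokine and complement genes was not tested.

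Genes of DNA replication and mitosis were lower on the ICG-001 array than on its vehicle, but less so against the vehicle of FJ9. Of 40 past the filter, 14 were lower and 1 higher with a median of −0.41, which was −0.06 against the vehicle of FJ9 and −0.26 between the vehicles. When each member was given the median of all genes in its level group, the median over the list was −0.26, and 15 of the 20 members under the filter were also lower. Top2a, a topoisomerase of dividing cells, was 6.11 against 7.90 and 7.09, and Rrm2, which makes deoxynucleotides, 7.10 against 8.86 and 8.39. Against both vehicles, 9 members were at least 1.5-fold lower, where 7.37% of all genes were. D cyclins, their kinases and CDK inhibitors showed 0 higher and 0 lower of 10. Cdkn1a, which encodes p21, was 12.15 against 11.61 and 11.89.

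Glycolysis and hypoxia genes were lower in 13 of 36 and higher in 2, with a median of −0.42 and −0.32 against the vehicle of FJ9. The phosphofructokinase genes Pfkm and Pfkl were 8.31 against 9.73 and 9.69, and 8.66 against 9.96 and 10.07. The lactate exporter Slc16a3 was 10.05 against 11.55 and 11.22. Slc2a3, a glucose transporter, and Slc16a1, a lactate carrier, were the higher ones at 1.47 and 1.24. In the IGF axis, 3 of 12 genes were lower and 1 higher, with a median of −0.28, or −0.12 against the vehicle of FJ9. Igfbp5, a binding protein of the matrix, was 2.22 below its vehicle and 0.60 below the vehicle of FJ9, and Igf1 was 11.84 against 12.56 and 12.65.

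The collagens that define the fibrotic phenotype lay near their vehicle levels. Col1a1 was 12.77 with ICG-001, 12.96 on its vehicle and 12.80 on the vehicle of FJ9, Col1a2 12.24, 12.50 and 12.42, and Col3a1 12.06, 12.38 and 12.49. Of 15 collagen genes, 1 was higher, Col11a1 at 0.78, and 1 lower, Col5a3 at −0.74, with a median of −0.24. Against the vehicle of FJ9 the collagen median was −0.03, and 0 collagen genes were 1.5-fold lower than on both vehicles. Elastic fibre, crosslinking and matricellular genes split 3 higher and 8 lower of 33 with a median of −0.28. By 1.5-fold against both vehicles, 1 of the 3 was higher and all 8 were lower, where 8.33% and 7.37% of all genes were. Emilin1, an elastic fibre glycoprotein, was 8.52 against 10.16 and 10.37, and Lum, a collagen-binding proteoglycan, 10.22 against 11.54 and 10.90. Has2, which makes hyaluronan, was 9.67 against 8.68 and 9.10. Matrix proteases and their inhibitors split 5 higher and 3 lower of 32, beside 12.6% and 13.1% of all genes. Adamts1 was 11.23 against 9.31 and 9.57.

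Contractile genes were divided. Of 25, 2 were higher and 5 lower, with a median of −0.14 that became 0.03 after centring. The list's median was −1.07 with FJ9 and −0.17 with Ad.DKK-1. Mylk, the myosin light chain kinase, was 10.29 against 11.33 and 11.12, and Myh10, a non-muscle myosin, 10.81 against 11.42 and 11.51. Cnn1, which encodes calponin, was 9.17 against 8.08 on its vehicle and 9.13 on the vehicle of FJ9. Acta2, the usual marker of stellate cell activation, was not analysed here, because no probe set carries its symbol alone. Genes of quiescent, retinoid-storing stellate cells split 3 higher and 4 lower of 25, beside 12.6% and 13.1% of all genes. Their median was −0.20, and −0.07 against the vehicle of FJ9. Lrat, which esterifies vitamin A, was 10.04 against 11.46 and 10.52.

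Pericyte identity genes split 6 higher and 9 lower of 26, with a median of −0.37 that was 0.00 against the vehicle of FJ9. By 1.5-fold against both vehicles, 4 were higher and 8 lower, where 8.33% and 7.37% of all genes were. Besides Rgs5, Rgs4 and Pdgfra, the growth factor Ptn was 6.55 against 9.24 and 8.85 and the amine oxidase Aoc3 5.79 against 8.25 and 7.44. Jag1, a Notch ligand, was 10.92 against 9.11 and 9.16, and the adhesion molecule Mcam 9.47 against 8.06 and 8.14. The guidance list divided likewise, with 9 higher and 11 lower of 47 and a median of −0.21, or −0.06 against the vehicle of FJ9. Sema3c, a secreted semaphorin, was 12.24 against 11.00 and 11.08, while Sema3e was 7.33 against 9.27 and 8.96 and Slit3 7.51 against 9.03 and 8.88. Of 21 integrins and laminins, 5 were higher and 2 lower. Itga6 was 8.78 against 7.58 and 7.56, Itga2 10.94 against 9.87 and 10.05, and Itgb5 10.12 against 11.44 and 11.45.

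Oxidative and metal stress genes split 4 higher and 7 lower of 32, with a median of −0.20, or −0.07 against the vehicle of FJ9. Their median was 0.71 with FJ9 and −0.09 with Ad.DKK-1. Gsta4, a glutathione transferase, was 7.02 against 8.94 and 8.72, and Txnrd1, a thioredoxin reductase, 10.87 against 9.91 and 9.97. The metallothionein genes Mt1 and Mt2A were 1.64 and 1.22 above the vehicle of ICG-001, but the vehicle of FJ9 lay between for Mt1 (7.82, 6.18 and 7.25) and highest for Mt2A (7.64, 6.42 and 7.98). A second probe set of Mt2A differed by 0.07, and the 2 genes are alike in sequence.

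**Figure D5:**
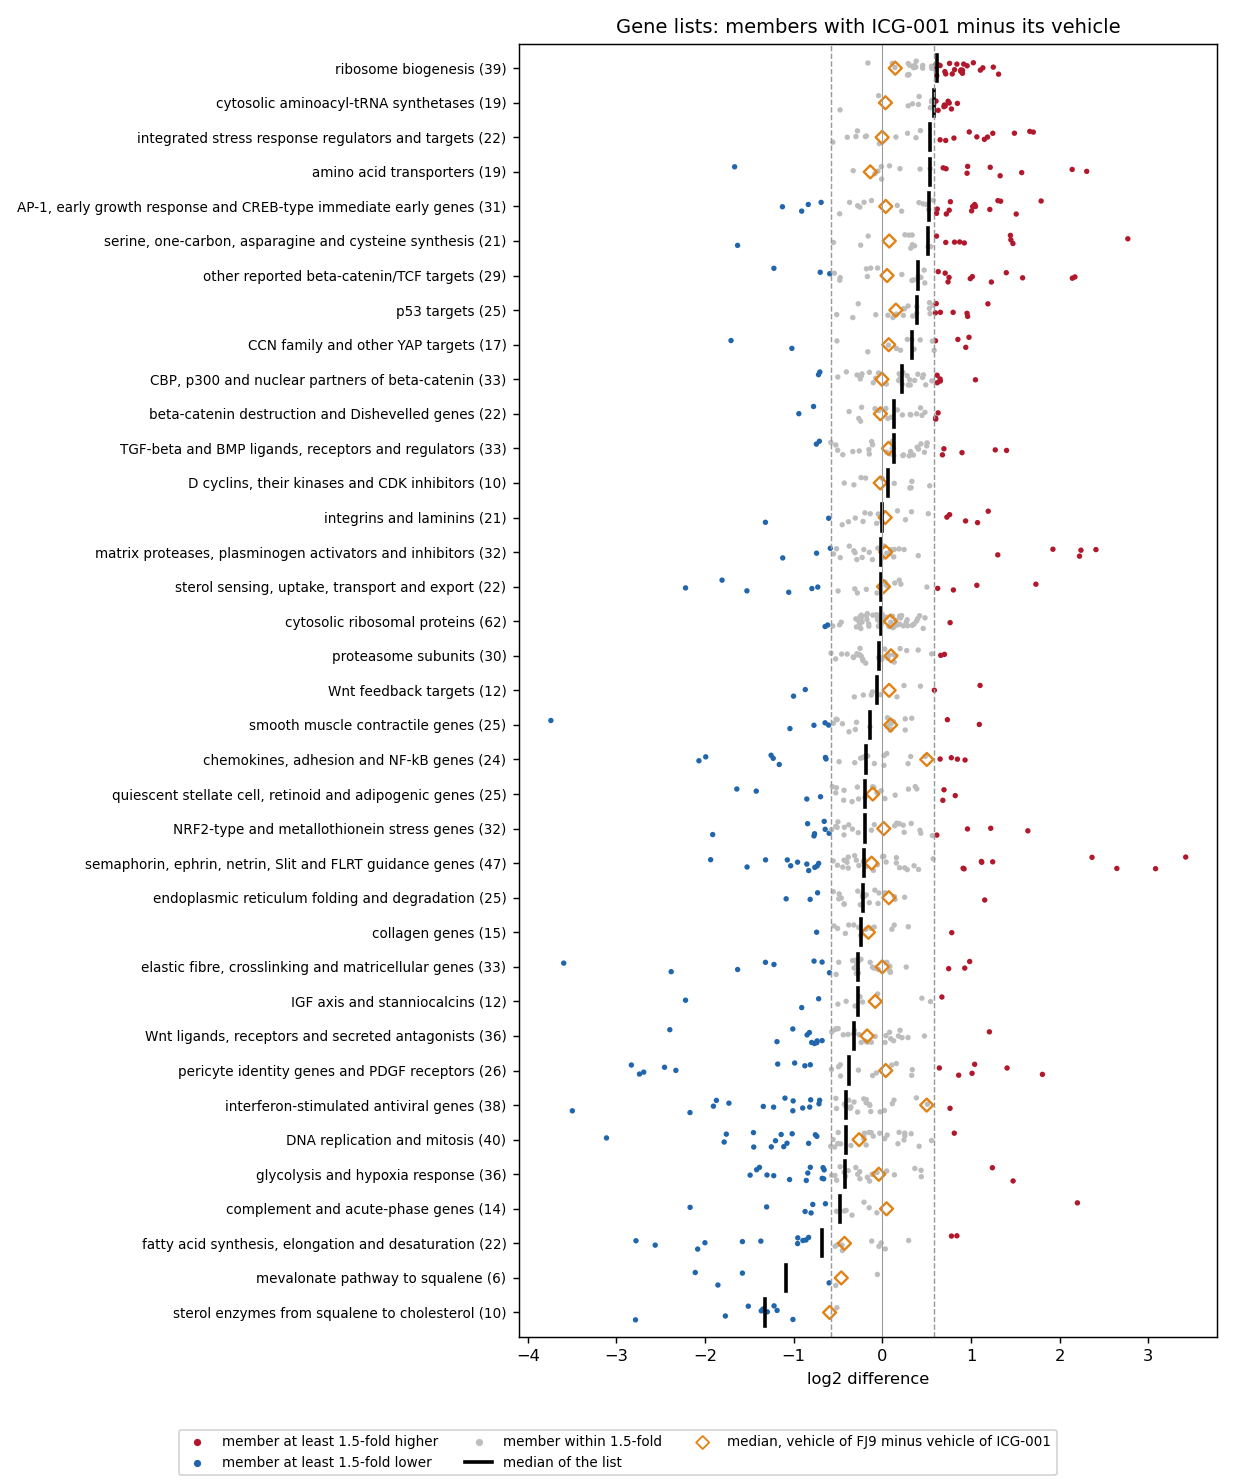
Each row is a gene list with the number of members past the level filter, each point a member, and the horizontal axis ICG-001 minus its vehicle (log2); red and blue points are at least 1.5-fold higher or lower, black bars are list medians, and orange diamonds are medians of the vehicle of FJ9 minus the vehicle of ICG-001. Medians run from 0.61 for ribosome biogenesis to −1.32 for the sterol enzymes, whose vehicle difference was itself −0.60.

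The FJ9 and Ad.DKK-1 comparisons share no array with ICG-001 against its vehicle. Of the 1267 genes higher with ICG-001, 431 (34%) were at least 1.5-fold higher with FJ9, which is 37.2% of that list, where 11.6% of all genes were; 81 (6.39%) were lower. Of the 1314 lower genes, 454 (34.6%) were lower with FJ9, or 30.6% of that list, where 14.8% of all genes were, and 34 (2.59%) were higher. With Ad.DKK-1, 422 of the higher genes (33.3%, and 29.1% of that list) and 607 of the lower genes (46.2%, and 29.2% of that list) went the same way, against 14.5% and 20.8% of all genes. Past 1.5-fold in either direction were 26.4% of all genes with FJ9 and 35.2% with Ad.DKK-1. FJ9 was given at 200 µM and ICG-001 at 10 µM, and the agents differ in kind, so these are values side by side.

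Some genes went opposite ways, and those named next were chosen after their values were seen. Cav1, the coat protein of caveolae, was 1.07 higher with ICG-001 and differed by −2.19 with FJ9. Its partner Cav2 differed by 0.96 and −1.46, and Il1rl1, the receptor for the alarmin IL-33, by 0.87 and −2.90. The values for Edn1 were 1.40 and −1.72. In the other direction, the transferrin receptor gene Tfrc differed by −1.50 with ICG-001 and 0.86 with FJ9, and Ampd3, an AMP deaminase, by −0.65 and 2.32. Slc7a8, Met, Klf5, Cd44 and Adamts1 were within 1.5-fold in both other comparisons, for instance Met at 0.49 with FJ9 and 0.49 with Ad.DKK-1 beside 2.17 with ICG-001.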

How the data were processed

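Total RNA from 6 cultures of rat hepatic stellate cells, each pooled over 3 to 4 rats, was profiled on Affymetrix whole-transcript arrays. The authors deposited 1 log2 value per probe set and array. Per the submitters' processing notes, RMA and Affymetrix Expression Console were used, and their versions, the annotation release and the genome build are not given in the sources. RMA subtracts background, matches the arrays' distributions and summarises probes, so a difference can move with that scaling. Values run from a floor at 4, and the number of arrays limits the precision.

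The platform annotation gave 1 symbol for 15092 of 26988 probe sets, several for 323 and none for 11573. Entrez identifiers of 15062 probe sets matched RefSeq genes of GRCr8, which changed 0 symbols. For 497 of 14322 genes with several probe sets, the one with the highest mean stood for the gene, and genes with a mean up to 6.39 were left out. The log2 difference of ICG-001 minus its vehicle was taken per gene, and genes past 1.5-fold were counted for the whole table and for 37 pathway and 7 marker lists. With 1 array a side, no test and no p-value was possible.

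The genes and lists were chosen with earlier results of these data known. The rule for named genes took the 20 largest increases and decreases past 1.5-fold from both vehicles, up to 10 members of each list, every member of the CBP, destruction complex and target lists, and genes at the filter's edge. Alternatives were other scalings, controls, filters and probe set rules. Counting was tested on simulated data. R 4.3.3, limma 3.58.1 and Python 3.11.15 were used.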

Additional observations from a re-analysis of the deposited data

Results flagged for a closer look

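Probe sets without a single gene symbol were outside every comparison above. Of 6479 of them past the same level, 1609 (24.8%) differed at least 1.5-fold between ICG-001 and its vehicle, 529 higher and 1080 lower. Between the vehicle arrays, 822 (12.7%) did. They were singled out because their share lay above that between the vehicles. It was close to the 25.7% of named genes, and their identity was not analysed here.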

How the results depend on the processing

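The counts of 1267 higher and 1314 lower genes became 2218 and 754 after centring each array on its median. Without a level filter 2337 genes were lower. With the lowest 50% of gene means left out, 622 were lower and 1588 differed in all. At 2-fold, 290 were higher and 329 lower, 619 in all.

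With the vehicle of FJ9 as the control, list medians moved to −0.063 for DNA replication and mitosis, −0.49 for the mevalonate pathway, −0.68 for late sterol enzymes, −0.23 for fatty acid synthesis, −1.03 for interferon-stimulated genes, 0.00 for pericyte genes, −0.72 for chemokine and NF-κB genes, −0.11 for hepatocyte markers and −1.15 for Kupffer markers. With the mean of both vehicles they were −0.98 for late sterol enzymes, −0.75 for interferon-stimulated genes and −0.46 for hepatocyte markers. The mevalonate median was −1.58 with the lowest 50% left out, which removes genes from the list. The causes of the other moves were not tested.

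Genes whose sign turned against the vehicle of FJ9 were Kat2a (−0.051), Rnf43 (0.011), Twist1 (−0.10), Scd (0.054), Fads1 (0.73), Pfkfb4 (0.21), Nfkbiz (−0.35), Orm1 (0.053), Mt2A (−0.34), Akr1b10 (0.051), Cd163 (0.13) and Cd3g (0.072). Of 346 named genes past 1.5-fold, 334 kept their direction against that array and 270 stayed past 1.5-fold. Under centring, repeated quantile normalization and cyclic loess all 346 kept their direction, and 309, 324 and 319 stayed past 1.5-fold. No paired analysis was possible because each group holds 1 array. Among the 1003 lowest genes by level, 74 were higher and 292 lower, with medians of −0.35 against its vehicle and −0.06 against the vehicle of FJ9.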

Other observations

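Genes were also grouped by the stem of their symbols, and the families named here were chosen after their values were seen. Of 15 Krüppel-like factor genes, which encode zinc finger transcription factors, 7 were at least 1.5-fold higher with ICG-001 and 1 lower, with a median of 0.58, and 7 were higher against both vehicles. Klf15 stood at 7.33 with ICG-001, 5.60 on its vehicle and 5.83 on the vehicle of FJ9, Klf11 at 8.85, 7.65 and 7.60, and Klf2 at 9.81, 8.79 and 8.55. Klf2 differed by −0.93 with FJ9 and Klf15 by 1.97, so the family did not share a direction there. The lower one was Klf1, at 6.36 against 7.09 and 6.77.

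Of 13 genes whose symbols begin with Trmt, which encode tRNA methyltransferases, 7 were higher and 0 lower, with a median of 0.70, and 4 were higher against both vehicles. Trmt6 stood at 9.77 against 8.71 and 8.82, and Trmt61a, which encodes its partner subunit, at 9.45 against 8.53 and 8.43. Of 12 synaptotagmin genes 2 were higher and 5 lower, and 2 and 3 against both vehicles. The shares over all genes were 12.6% and 13.1%, and 8.33% and 7.37% against both vehicles.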
